A study of Mus musculus with 12 samples.

Results

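The vascular basement membrane is the sheet of extracellular matrix that endothelial cells share with pericytes and, in brain, with astrocyte endfeet. It was described here through 10 genes: the laminin chains Lama4, Lama5, Lamb1, Lamb2 and Lamc1, the collagen IV chains Col4a1 and Col4a2, the nidogens Nid1 and Nid2, and Hspg2, which encodes perlecan. The genes were chosen by name and not by a rule on their values, but with earlier results of these data known. They were 10 of the 21638 genes in the table. All 10 were among the 12577 genes tested, whose counts averaged 10 or more per library. As background, a laminin is a trimer of an alpha, a beta and a gamma chain that is bound at the cell surface by integrins and dystroglycan. Many laminins, but not all, polymerise there into a network. Collagen IV forms a second network that is covalently crosslinked and gives vessels tensile strength, and nidogens and perlecan bridge both networks. In brain, mutations of COL4A1 and COL4A2 are known for small vessel disease and haemorrhage.

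RNA came from cortical endothelial cells of adult mice, sorted as CD31+/CD41-/CD45- cells, and was sequenced as SMART-Seq v4 PLUS libraries, a kit for few cells. The 4 groups held 3 libraries each: WT, Hdac2 ECKO (Hdac2lox/lox:Cdh5CreERT2), Ezh2 ECKO (Ezh2lox/lox:Cdh5CreERT2) and beta-catenin GOF (Ctnnb1lox/lox:Cdh5CreERT2). ECKO stands for a knockout in endothelial cells and GOF for gain of function. Cdh5CreERT2 is a Cre recombinase driven by the VE-cadherin promoter and switched on by tamoxifen, so each mutant rests on recombination in endothelium. The mutants received 5 doses of tamoxifen at 75 mg/kg, and brains were taken 2 months later. The labels do not say whether WT mice carried Cre or received tamoxifen, and no age other than adult is given. Nothing in the labels says that libraries of a group came from separate animals, so p-values measure the spread between these libraries, which may be technical.

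Library totals were 24781070 to 36109975 counts, and 13922 to 17091 genes were above 0. Levels are given as CPM, counts scaled to the library total after TMM normalization. All 12 endothelial markers were detected in every library, and their summed level was 17205 to 22762 CPM in WT, 12488 to 14961 CPM in Hdac2 ECKO, 15768 to 22091 CPM in the Ezh2-labelled libraries and 19127 to 21704 CPM in beta-catenin GOF. The targeted genes did not settle the labels. Hdac2 averaged 129 ± 30.1 CPM in WT, against 96.5 ± 15.2 CPM in Hdac2 ECKO (SD, n = 3 libraries each). Its log2 fold change was −0.42, which did not pass the test (edgeR adjusted p 0.22). Its level was as low in beta-catenin GOF, at 96.2 ± 10.1 CPM (log2 fold change −0.43, adjusted p 0.88), so the difference was not particular to the knockout label. Ezh2 was not lower in its own group, at 8.92 ± 3.36 CPM against 6.75 ± 3.52 CPM in WT (SD, n = 3 each). The log2 fold change was 0.40 (edgeR adjusted p 0.61), so no difference was shown. Its level was similar in Hdac2 ECKO, at 9.49 ± 4.39 CPM, and in beta-catenin GOF, at 9.36 ± 1.31 CPM. As its counts did not show the knockout, that group is called the Ezh2-labelled libraries. The counts of Hdac2 did not settle its knockout either, and the name Hdac2 ECKO is kept as the label gives it. Ctnnb1 in beta-catenin GOF had a log2 fold change of −0.17 (edgeR adjusted p 0.96). For Hdac2, Ezh2 and Ctnnb1 alike, counts per gene do not show whether a lox-flanked exon was lost. Ezh2-labelled replicate 2 stood apart from its group: it was at −33.2 on the first principal component, against 53.7 and 47.7 for replicates 1 and 3. Its weight in a fit that weights libraries by quality was 0.262, the lowest of the 12, and results that rest on it are given with and without it.

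Collagen IV dominated the 10 genes. Per kilobase of gene length, which is the scale for comparing genes, Col4a1 was at 13.9 ± 2.31 CPM and Col4a2 at 8.00 ± 1.25 CPM in WT (SD, n = 3). They were followed by the beta chain gene Lamb2 at 5.72 ± 1.47, Nid2 at 3.66 ± 1.33, Nid1 at 2.46 ± 0.431, Lamc1, the gamma chain gene, at 2.40 ± 0.297, and the alpha chain genes Lama5 at 1.90 ± 0.636 and Lama4 at 1.51 ± 0.126 CPM per kilobase. Hspg2 lay far below at 0.237 ± 0.0466, and Lamb1 was last at 0.0406 ± 0.0408 CPM per kilobase. Only the steps from Col4a1 to Col4a2, from Lama4 to Hspg2 and from Hspg2 to Lamb1 separated all 3 WT libraries of one gene from all 3 of the next. Every other pair of neighbours in the order overlapped. In all 4 groups Col4a1 lay above the other 9 genes, and Hspg2 and then Lamb1 lay below the rest, without overlap. Nid2 exceeded Lamb2 on average in Hdac2 ECKO, at 9.02 ± 2.34 against 8.56 ± 1.63 CPM per kilobase, within the spread. In the Ezh2-labelled libraries it stood above Lamb2 without overlap, at 7.36 ± 1.17 against 5.42 ± 0.244 CPM per kilobase (SD, n = 3 each).

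**Figure D1:**
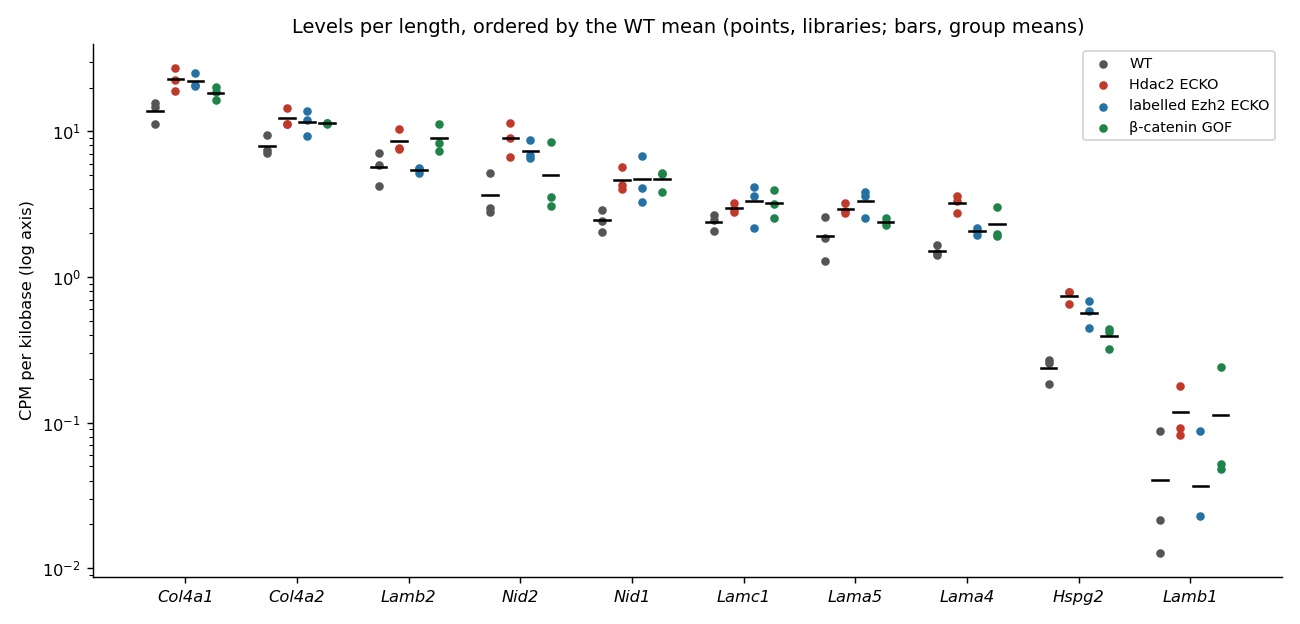
CPM per kilobase (log axis) of each gene, ordered by the WT mean, with 1 point per library, colours for the 4 groups and a bar at each group mean. Col4a1 is the highest gene and Lamb1 the lowest in all 4 groups, and 1 Ezh2-labelled library with 0 counts of Lamb1 cannot be drawn.

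Col4a1 and Col4a2 start head to head on chromosome 8 (GRCm38): Col4a1 (ENSMUSG00000031502.11, 11198423 to 11312826, minus strand) and Col4a2 (ENSMUSG00000031503.13, 11312805 to 11449287, plus strand) overlap by 22 bases of exon at their 5′ ends. The overlap (chr8:11312805-11312826) is shown on the strand of each gene because the pair is read from 1 promoter region, with a GC box (GGGCGG or its complement) in capitals.
Col4a2: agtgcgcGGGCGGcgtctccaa
Col4a1: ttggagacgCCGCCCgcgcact
The ratio of Col4a1 to Col4a2, each in CPM per kilobase, was 1.58, 1.97 and 1.66 in WT replicates 1, 2 and 3, and 2.02, 1.71 and 1.88 in Hdac2 ECKO. It was 1.75, 2.18 and 1.82 in the Ezh2-labelled libraries and 1.77, 1.63 and 1.46 in beta-catenin GOF, so all 4 groups overlapped.

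RefSeq promoter windows on GRCm38.p6, from 250 bases before to 50 after the start, were found for 7 of the 10 genes, all but Lama4, Lamc1 and Nid2. The stretch before the first exon is shown for Hspg2 (chr4:137468553-137468768, plus strand) and for Nid1 (chr13:13437352-13437550, plus strand). Of the 10 genes, Hspg2 had the largest fold change that passed the edgeR test below. The fold change of Nid1 was nearly equal in the 3 mutants. Capitals mark GC boxes (GGGCGG) and CCAAT boxes on either strand.
Hspg2: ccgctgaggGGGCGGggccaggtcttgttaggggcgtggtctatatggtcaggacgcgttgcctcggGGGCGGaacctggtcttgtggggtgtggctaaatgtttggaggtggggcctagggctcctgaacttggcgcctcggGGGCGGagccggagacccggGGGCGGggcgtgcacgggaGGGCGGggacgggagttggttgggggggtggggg
Nid1: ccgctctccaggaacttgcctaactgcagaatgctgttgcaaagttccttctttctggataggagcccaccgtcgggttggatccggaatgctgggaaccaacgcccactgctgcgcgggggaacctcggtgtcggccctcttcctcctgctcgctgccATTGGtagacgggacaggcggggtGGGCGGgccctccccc
The Hspg2 stretch held 5 GC boxes and no CCAAT box, and that of Nid1 held 1 of each. Searched on both strands, the GC box was in the windows of 6 of the 7 genes (all but Lamb2), against 35.7% of 32851 promoter windows. The windows of Col4a1 and Col4a2 overlap, so these 2 are not separate. The only GC box of the Col4a1 window lies in the 22 bases that both genes share, and it counts for both. CCAAT was in 4 of the 7 (Col4a1, Col4a2, Lamb1 and Nid1), against 37.4%. TATAAA was in 0 of the 7, against 13.6%. The core CTTTGA bound by the TCF/LEF partners of beta-catenin was in the Lamb2 window only, against 16% of all windows. These matches describe letters in a window, not sites in use.

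Lama4 (ENSMUSG00000019846.11, chromosome 10, 38965515 to 39110188) encodes the alpha 4 chain of laminin 411, the main endothelial laminin. It stood at 19.9, 17.7 and 17.0 CPM in WT replicates 1, 2 and 3 and at 43.6, 40.4 and 32.9 CPM in Hdac2 ECKO. The Ezh2-labelled libraries were at 26.2, 23.4 and 25.1 CPM and those of beta-catenin GOF at 23.7, 36.5 and 23.0 CPM. All 9 mutant libraries were above all 3 WT libraries, and Hdac2 ECKO was also above the Ezh2-labelled libraries without overlap. Lama5 (ENSMUSG00000015647.9, chromosome 2, 180176373 to 180225859) encodes the alpha 5 chain of laminin 511, which is laid down in mature vessels. Its WT levels were spread from 14.7 to 29.2 CPM. Hdac2 ECKO was at 32.3, 31.3 and 36.7 CPM, above every WT library. The Ezh2-labelled libraries, at 43.4, 29.0 and 41.1 CPM, touched the WT range only through replicate 2, and beta-catenin GOF, at 27.2, 29.1 and 25.8 CPM, lay inside it.

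Of the beta chain genes, Lamb2 (ENSMUSG00000052911.9, chromosome 9, 108479736 to 108490530) was far the more abundant. It was at 25.5, 43.4 and 35.5 CPM in WT libraries and 46.0, 63.5 and 46.7 CPM in those of Hdac2 ECKO, with 44.6, 50.6 and 68.4 CPM in beta-catenin GOF, both above WT without overlap. The Ezh2-labelled libraries had 33.9, 33.7 and 31.3 CPM, inside the WT range. Lamb1 (ENSMUSG00000002900.16, chromosome 12, 31265234 to 31329644), the beta chain of laminins 411 and 511, had 25, 4 and 6 counts in the WT libraries, 24, 25 and 51 in Hdac2 ECKO, 7, 0 and 24 in the Ezh2-labelled libraries and 15, 18 and 82 in beta-catenin GOF. A count of 0 allows up to 3 counts, or 0.118 CPM, in that library if counts are independent, and mates of a pair counted singly would raise this limit. The groups of Lamb1 overlapped, and edgeR and DESeq2 called no difference from WT. Limma voom with sample quality weights called it in Hdac2 ECKO (log2 fold change 2.65, adjusted p 0.046). Lamc1 (ENSMUSG00000026478.14, chromosome 1, 153218922 to 153332786), the gamma chain of both laminins, was at 20.3, 22.0 and 17.2 CPM in WT, beside 26.7, 23.1 and 24.2 CPM in Hdac2 ECKO. It was at 29.7, 17.9 and 34.3 CPM in the Ezh2-labelled libraries and 20.97 to 32.8 CPM in beta-catenin GOF, and both of these groups overlapped WT.

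Col4a1 stood at 83.9, 109.8 and 117 CPM in WT libraries and 169, 142 and 203 CPM in those of Hdac2 ECKO, with 155, 152 and 188 CPM in the Ezh2-labelled libraries and 152, 138 and 123 CPM in beta-catenin GOF. Every mutant library was above every WT library. Col4a2 was at 47.1, 49.4 and 62.3 CPM in WT libraries and 74.2, 74.0 and 95.8 CPM in those of Hdac2 ECKO, with 78.7, 61.7 and 91.4 CPM in the Ezh2-labelled libraries and 75.9, 75.4 and 74.6 CPM in beta-catenin GOF. Its 3 beta-catenin GOF libraries were almost equal (SD 0.627 CPM), and only Ezh2-labelled replicate 2 reached down into the WT range.

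Nid1 (ENSMUSG00000005397.8, chromosome 13, 13437551 to 13512269), which links laminin to collagen IV, was at 20.2, 14.2 and 16.9 CPM in WT, beside 29.6, 27.9 and 39.7 CPM in Hdac2 ECKO. It was at 22.6, 28.5 and 47.2 CPM in the Ezh2-labelled libraries and 35.7, 26.7 and 35.5 CPM in beta-catenin GOF, so all 9 mutant libraries exceeded WT. Nid2 (ENSMUSG00000021806.4, chromosome 14, 19751265 to 19811787), its close relative, was at 15.4, 14.5 and 26.9 CPM in WT. It reached 58.8, 34.6 and 46.6 CPM with Hdac2 ECKO, and 45.0, 33.7 and 35.5 CPM in the Ezh2-labelled libraries. Both of these groups were above WT, whereas beta-catenin GOF was split, at 16.0, 18.2 and 43.4 CPM, with only replicate 3 above the WT range. The last exon of Nid2 overlaps exons of Rtraf on the other strand by 437 bases, and the use of strand in counting is not given in the sources used here, so reads of the pair cannot be told apart there. Rtraf itself was at 275 ± 62.0 CPM in WT, beside 256 ± 23.6 CPM (SD, n = 3 each) in Hdac2 ECKO, a log2 fold change of −0.10. In the Ezh2-labelled libraries Rtraf was at 361 ± 69.5 CPM (log2 fold change 0.39, edgeR adjusted p 0.33), the same direction as Nid2 there, and in beta-catenin GOF at 266 ± 41.4 CPM. Nid1 shares 143 exonic bases with the antisense gene Gm48682.

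Hspg2 (ENSMUSG00000028763.17, chromosome 4, 137468769 to 137570630) encodes perlecan, the large heparan sulfate proteoglycan of the membrane, and at 14739 bases it was the longest of the 10 genes. It was at 2.71, 3.99 and 3.77 CPM in WT, beside 11.7, 11.6 and 9.67 CPM in Hdac2 ECKO. It was at 10.0, 6.53 and 8.59 CPM in the Ezh2-labelled libraries and 6.21, 6.52 and 4.70 CPM in beta-catenin GOF. No library of any mutant group reached down to WT, and beta-catenin GOF lay wholly below Hdac2 ECKO.

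**Figure D2:**
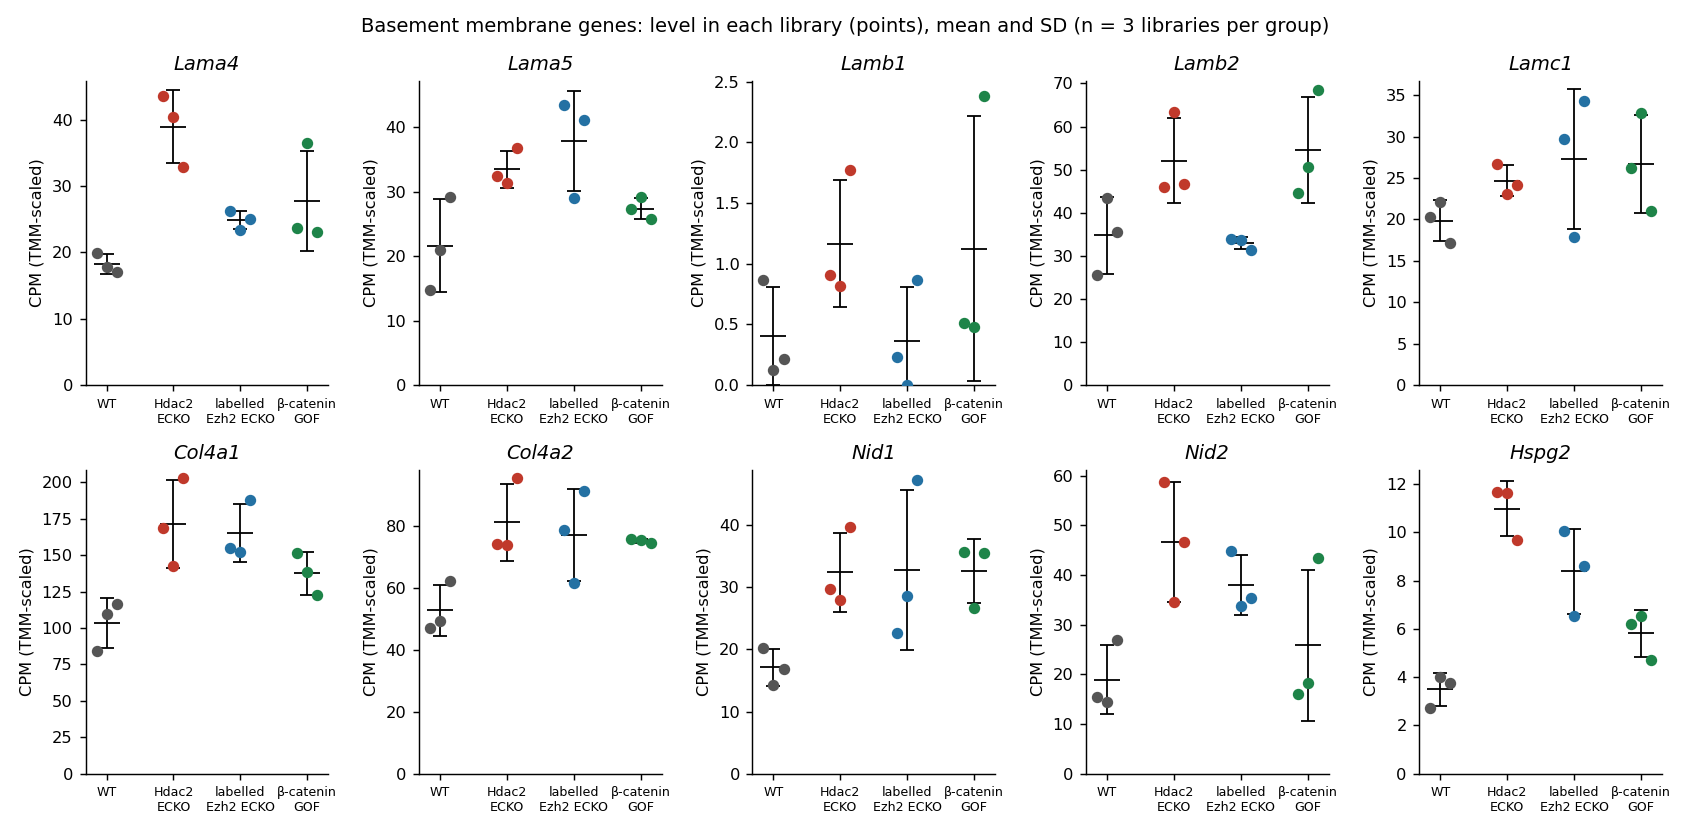
TMM-scaled CPM of the 10 genes (linear axes from 0), with 1 point per library and the mean ± SD of the 3 libraries of each group. Hspg2 and Lama4 in Hdac2 ECKO lie well clear of WT, while Lamb2 in the Ezh2-labelled libraries stays inside the WT range.

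Summed over the 10 genes, the level was 250.6, 296 and 326 CPM in WT replicates 1, 2 and 3 and 493, 449.5 and 537 CPM in Hdac2 ECKO. It was 445, 386 and 503 CPM in the Ezh2-labelled libraries and 408, 415 and 421 CPM in beta-catenin GOF. All 9 mutant sums exceeded all 3 WT sums. Col4a1 and Col4a2 together made up 46.8% to 55.8% of the sum in each library, so the sum mainly follows these 2 genes. The comparisons that follow share the WT libraries, so a low WT value moves the fold change of a gene in all 3 of them.

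In Hdac2 ECKO against WT, all 10 genes had a positive log2 fold change and edgeR called 3 of them higher. Hspg2 rose by 1.65 on the log2 scale (SE 0.33, adjusted p 0.032 with edgeR), Nid2 of 1.30 (SE 0.38, adjusted p 0.046, or 0.051 with median-ratio scaling) and Lama4 of 1.10 (SE 0.26, adjusted p 0.034), which are 3.14-fold, 2.47-fold and 2.14-fold. Among all tested genes 3.82% were called higher. DESeq2 called 5 of the 10, beside at most 20.7% of tested genes, and limma voom with sample quality weights 8, beside 42.7%. DESeq2 was fitted to every gene with a count, and all its calls were divided by the number of tested genes. Its percentages, here and below, are therefore upper limits. The other 7 did not pass: Nid1 had a log2 fold change of 0.92 (adjusted p 0.060), Col4a1 of 0.73 (adjusted p 0.056), Lama5 of 0.63 (adjusted p 0.13) and Col4a2 of 0.62 (adjusted p 0.085). Lamb2 had 0.58 (adjusted p 0.14), Lamc1 0.31 (adjusted p 0.46) and Lamb1 1.52 with an SE of 1.24 (adjusted p 0.41). The 10 genes had a median log2 fold change of 0.83, beside 0.10 over all tested genes, and 9 of them (all but Lamb1) lay above WT without overlap, beside 19.5% of all genes. With scaling by library size alone the median over all genes moved from 0.10 to 0.34 and the calls turned from 480 higher and 677 lower to 1469 higher and 357 lower, and 6 of the 10 genes passed, beside 11.7% of all genes called higher.

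The 3 calls depended on which libraries entered the fit. None of the 10 genes passed without WT replicate 1, without WT replicate 2, without Hdac2 ECKO replicate 1 or without Hdac2 ECKO replicate 3, while 5 passed without WT replicate 3 and 4 without Hdac2 ECKO replicate 2. The fold changes moved less: Hspg2 kept a log2 fold change of 1.50 to 1.76, Lama4 of 1.00 to 1.19 and Nid2 of 1.09 to 1.64 over these 6 fits. Over all genes, 1157 calls became 0 to 3 in the 4 fits with no call among the 10, and 1872 and 2216 in the other two. Without Ezh2-labelled replicate 2, which enters here only through the shared estimate of the spread, 6 of the 10 genes passed.

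Gene length moved with this comparison. The 10 genes were 5174 (Nid2) to 14739 bases long (Hspg2), with a median of 7868 bases against 4429 bases for tested genes, and each was longer than that median. Across the 12577 tested genes, which are not independent replicates, log2 fold change correlated with length at a Spearman rho of 0.44 in Hdac2 ECKO, 0.29 in the Ezh2-labelled libraries and 0.14 in beta-catenin GOF. For Hdac2 ECKO the median log2 fold change was −0.52 for the shortest 20% of genes and 0.66 for the longest 20%. The 4774 other genes within the length range of the 10 had a median of 0.47 there, with 6.26% called higher and 32.2% above WT without overlap.

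An offset that removes a smooth trend of counts on length in each library brought rho to 0.02 in Hdac2 ECKO and ended all 3 calls. Hspg2 then had a log2 fold change of 0.94 (edgeR adjusted p 0.077), Nid2 of 1.16 (adjusted p 0.073) and Lama4 of 0.44 (adjusted p 0.30). With the offset 1.61% of all genes were called higher. Lamc1 turned from 0.31 to −0.13, and Lama5 then had a log2 fold change of 0.04 (adjusted p 0.93). The median of the 10 genes was 0.40 with the offset, beside 0.07 for the other genes in their length range and 0.03 for all genes. Nid2, the shortest of the 10, lost the least of the 3 genes called. With GC content added to the offset, Hspg2 passed again, at 1.01 (adjusted p 0.047). The part of the length trend in these fold changes was not tested beyond the offset.

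**Figure D3:**
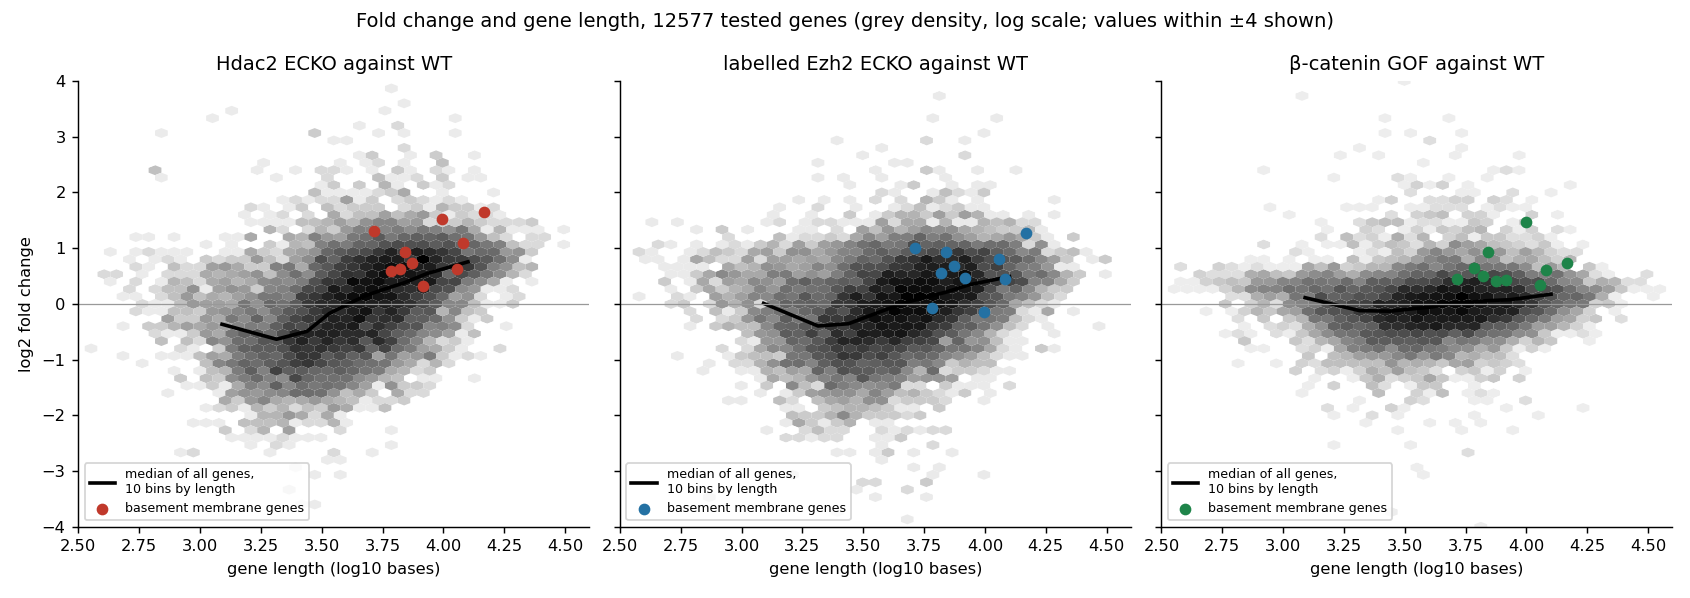
Log2 fold change against gene length (log10 bases) in the 3 comparisons with WT, with all tested genes as grey density, the median in bins of genes by length as a black line and the 10 basement membrane genes as coloured points. Beyond the shortest genes the line rises with length in Hdac2 ECKO (rho 0.44, against 0.29 and 0.14 in the other comparisons), and the 10 genes lie in the longer range of the axis.

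Against WT, the Ezh2-labelled libraries had 0 of the 10 genes past the edgeR test and 6 with an unadjusted p under 0.05 (24.7% of all tested genes), beside 1.03% of all tested genes called in either direction (0.342% higher). The largest log2 fold changes were those of Hspg2 at 1.26 (SE 0.33, adjusted p 0.066), Nid2 at 1.01 (SE 0.38, adjusted p 0.12), Nid1 at 0.94 (SE 0.30, adjusted p 0.091) and Lama5 at 0.81 (SE 0.28, adjusted p 0.10). Col4a1 was at 0.67 (adjusted p 0.10), Col4a2 at 0.55 (adjusted p 0.16), Lamc1 at 0.46 (adjusted p 0.33) and Lama4 at 0.45 (adjusted p 0.28). Lamb2 was at −0.08 (SE 0.26, adjusted p 0.88) and Lamb1 at −0.14 (SE 1.24, adjusted p 0.96). The median of the 10 was 0.61, beside 0.05 for all genes and 0.28 for the other genes in the length range. Lama4, Col4a1, Nid1, Nid2 and Hspg2 lay above WT without overlap, beside 11.1% of all genes and 15.2% of those in the length range.

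These calls also moved with single libraries. Without Ezh2-labelled replicate 2, 5 of the 10 genes passed and the calls over all genes went from 129 to 2329. Without WT replicate 3, 2 of the 10 passed and 1143 of all genes, and leaving out any other library of the comparison gave 0 of the 10. DESeq2 called 3 of the 10 genes, beside at most 10.3% of tested genes, and limma voom with sample quality weights called 6, beside 29.8%. With the length offset the median of the 10 was 0.39, with Nid2 at 0.95, Hspg2 at 0.78, Nid1 at 0.73 and Lama4 at 0.03.

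In beta-catenin GOF against WT, 0 of the 10 genes and 0% of the tested genes passed the edgeR test, although 5 of the 10 (Nid1, Lamb2, Lama4, Hspg2 and Col4a2) and 763 of all genes (6.07%) had an unadjusted p under 0.05. DESeq2 called 44 genes (at most 0.35% of tested genes) and limma voom with sample quality weights 26 (0.207%), none of them among the 10. Nid1 had a log2 fold change of 0.93 (SE 0.30, adjusted p 0.66), close to its 0.92 in Hdac2 ECKO and its 0.94 in the Ezh2-labelled libraries, which share the WT libraries. Hspg2 was at 0.73 (SE 0.33), Lamb2 at 0.65 (SE 0.27), Lama4 at 0.61 (SE 0.25) and Col4a2 at 0.51 (SE 0.23). Nid2 was at 0.45, Lamc1 at 0.43, Col4a1 at 0.41, Lama5 at 0.34 and Lamb1 at 1.47 with an SE of 1.24. Nid2 rested on replicate 3 alone, and without it the log2 fold change was −0.15. The median of the 10 was 0.56, beside 0.01 for all genes and 0.07 for the other genes in the length range, and the length offset left it at 0.44. Lama4, Lamb2, Col4a1, Col4a2, Nid1 and Hspg2 lay above WT without overlap, beside 6.83% of all genes and 8.82% in the length range.

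**Figure D4:**
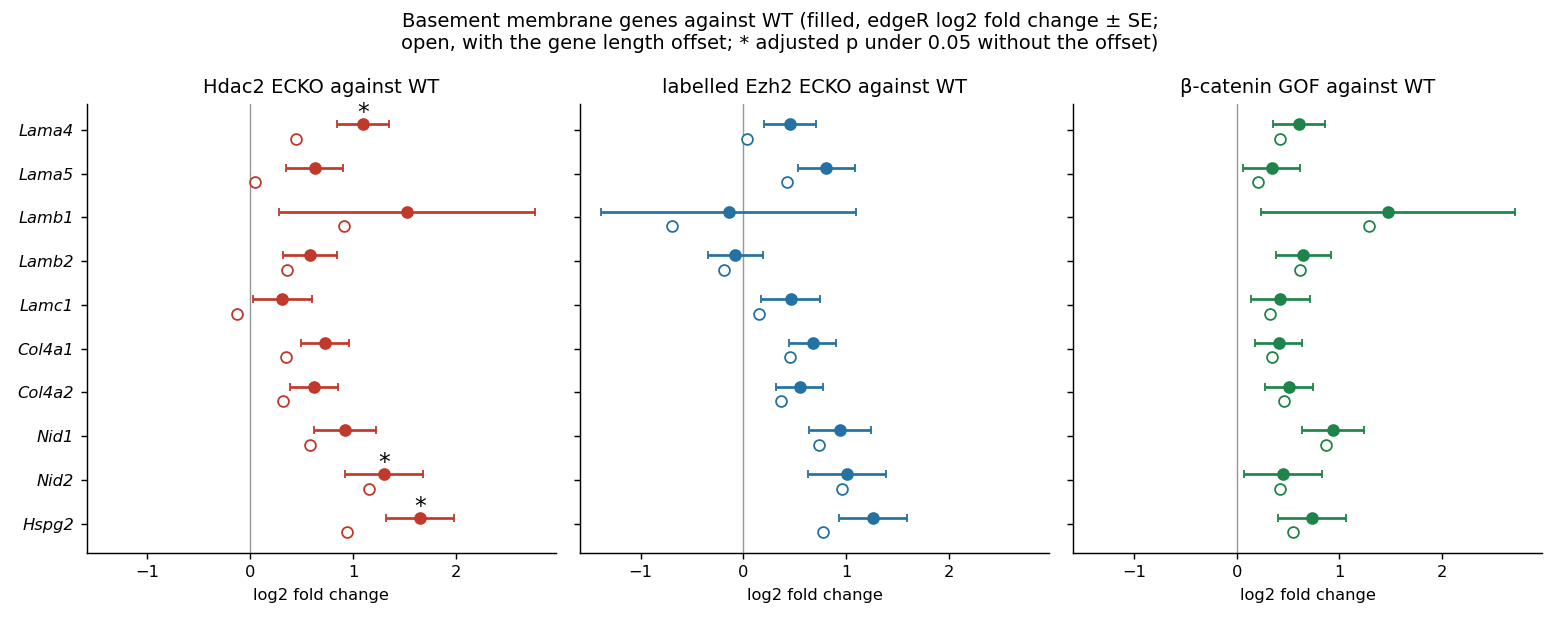
Log2 fold change against WT of the 10 genes in the 3 comparisons, as filled points ± SE from edgeR and as open points with the gene length offset, with an asterisk where the adjusted p is under 0.05 without the offset. The 3 asterisks are in Hdac2 ECKO, and the open points lie left of the filled ones, by most for Lama4 and Hspg2 in Hdac2 ECKO.

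Between mutants no difference in the 10 genes passed the edgeR test. At an unadjusted p under 0.05 there were 2 of the 10 in Hdac2 ECKO against the Ezh2-labelled libraries, 2 in beta-catenin GOF against Hdac2 ECKO and 1 in beta-catenin GOF against the Ezh2-labelled libraries. Of all tested genes 8.19%, 21.1% and 13.2% had such a p, so the last 2 of these counts were at or below the share of all genes. DESeq2 called 0 of the 10 in each pair, beside at most 0.938%, 2.77% and 1.52% of tested genes. By edgeR, 0.0239% of all genes were called in Hdac2 ECKO against the Ezh2-labelled libraries, 0.0716% in beta-catenin GOF against Hdac2 ECKO and 0.0636% in beta-catenin GOF against the Ezh2-labelled libraries. Against the Ezh2-labelled libraries Lamb2 had a log2 fold change of 0.73 (SE 0.27) in beta-catenin GOF and of 0.66 (SE 0.27) in Hdac2 ECKO, both without overlap and with edgeR adjusted p of 0.31 and 0.56. Lama4 had 0.65 in Hdac2 ECKO against the same libraries (SE 0.25, adjusted p 0.55). Hspg2 in beta-catenin GOF was at −0.92 (SE 0.33, adjusted p 0.17) and Nid2 at −0.85 (SE 0.38, adjusted p 0.22) against Hdac2 ECKO. Limma voom with sample quality weights called these last 2 genes, Nid2 with an adjusted p of 0.0098 and Hspg2 of 0.038, and none of the 10 in the other pairs of mutants. In these 3 pairs it called 0.0875%, 26.5% and 11.7% of all genes, so the 2 genes are 20% of the members beside 26.5% of all genes.

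Pericytes and smooth muscle cells also make basement membrane, and their markers moved with part of the pattern. The summed level of 12 mural markers was 60.8, 84.1 and 125 CPM in WT libraries and 346, 133 and 249.7 CPM in those of Hdac2 ECKO, with 60.5, 80.5 and 57.9 CPM in the Ezh2-labelled libraries and 429.7, 114 and 123 CPM in beta-catenin GOF. In Hdac2 ECKO edgeR called 5 of the 11 mural markers tested higher, beside 3.82% of all tested genes. DESeq2 called 7 of them, beside at most 20.7%, and voom with quality weights 8, beside 42.7%. Among the 5 was Myh11, the smooth muscle myosin, at 2.85, 3.96 and 3.35 CPM in WT, beside 60.9, 11.9 and 34.0 CPM in Hdac2 ECKO. Pdgfrb, the pericyte receptor, went from 0.555, 0.0633 and 0.427 CPM to 10.5, 2.68 and 5.13 CPM. For the Ezh2-labelled libraries edgeR, DESeq2 and voom called 0 of the 11, with 1 at an unadjusted edgeR p under 0.05, beside 24.7% of all genes. In beta-catenin GOF edgeR and voom called 0 and DESeq2 2, with 6 at an unadjusted edgeR p under 0.05, beside 6.07% of all genes. Of the pericyte-defining pair, Cspg4 was at 0 in 1 library, WT replicate 2, and Pdgfrb in none. Endothelial markers also moved in Hdac2 ECKO, where their sum lay below WT without overlap. Most of that sum was Ly6c1, with a mean of 12896 CPM over WT libraries but only 8132 CPM over those of the Hdac2 group. Its log2 fold change was −0.67 (edgeR adjusted p 0.11). Gene by gene the markers were split: 6 of the 12 had a positive log2 fold change, and the median was 0.04 in Hdac2 ECKO. There Egfl7, a secreted endothelial factor, fell by 1.38 on the log2 scale (edgeR adjusted p 0.034). Erg, an endothelial transcription factor, rose by 1.06 (adjusted p 0.036), and the other 10 did not pass. Of all tested genes 9.2% were called in either direction. An unadjusted edgeR p under 0.05 was found for 9 of the 12, beside 33.1% of all genes. DESeq2 called 4 of the 12, beside at most 20.7%, and voom with quality weights 10, beside 42.7%. Cldn5 had a log2 fold change of −1.10 (edgeR adjusted p 0.10). The edgeR calls of mural and endothelial markers in Hdac2 ECKO are given without the length offset and with all libraries in the fit. As given above, nearly all calls over all genes in that comparison were lost in some fits with 1 library left out. The part of mural RNA or of endothelial content in the values of the 10 genes was not tested. In bulk samples fewer cells of a type and less RNA per cell cannot be told apart.

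**Figure D5:**
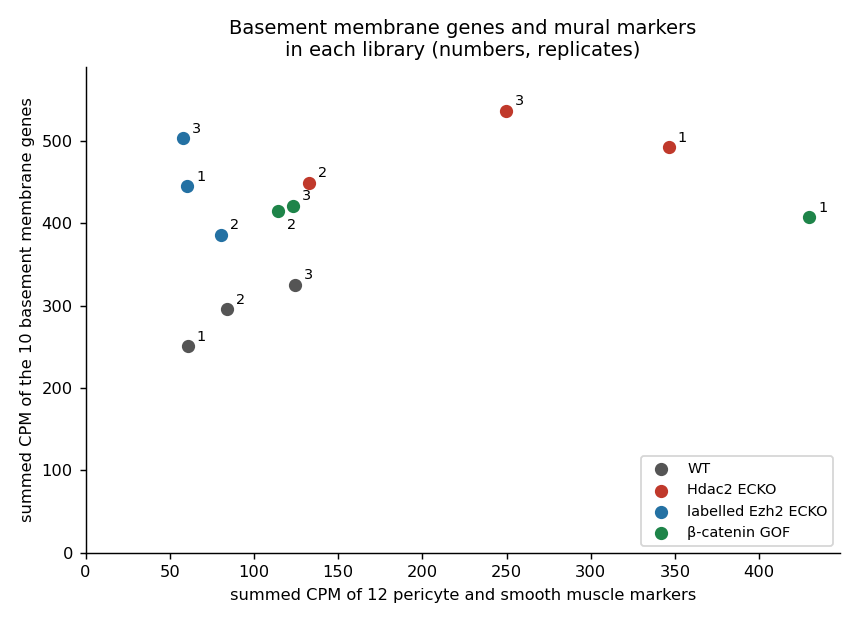
Summed CPM of the 10 basement membrane genes (vertical) against summed CPM of the 12 pericyte and smooth muscle markers (horizontal), 1 point per library, coloured by group and numbered by replicate. The 3 WT libraries lie lowest on the vertical axis, and Hdac2 ECKO and beta-catenin GOF replicate 1 lie farthest to the right, at 133 to 429.7 CPM.

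Markers of further cell types were measured in the same way. Fibroblast markers, 10 genes that include the interstitial collagens Col1a1 and Col3a1, summed to 0.472 to 6.45 CPM in the 12 libraries, with Dcn at 0 in 4 of them. Astrocyte markers summed to 24.4 to 36.4 CPM in WT, 51.3 to 78.6 CPM in Hdac2 ECKO, 44.3 to 80.3 CPM in the Ezh2-labelled libraries and 38.2 to 54.3 CPM in beta-catenin GOF. Most of this was Gja1, which averaged 25.9, 49.9, 50.1 and 42.7 CPM in the same order. Gfap went the other way, at 0.852, 0.174, 0.192 and 0.671 CPM. Of the 5 astrocyte markers tested, 4, 4 and 3 had a positive log2 fold change in the 3 mutants. Aqp4, which defines endfeet, was at 0 in 7 libraries. Neuron markers summed to 160 to 305 CPM in WT, 71.1 to 115 CPM in Hdac2 ECKO, wholly below WT, 181 to 423 CPM in the Ezh2-labelled libraries and 119 to 249 CPM in beta-catenin GOF. Most of this was Stmn2, a neuronal growth-associated gene, with a log2 fold change of −1.23 in Hdac2 ECKO. The other neuron markers tested, Gad1 (1.18, SE 1.36) and Map2 (1.34, SE 1.19), had positive log2 fold changes there. None of these 3 passed the edgeR test, and Slc17a7, which defines excitatory neurons, was at 0 in 7 libraries. Oligodendrocyte lineage markers summed to 22.3 to 80.2 CPM in WT and 13.8 to 35.9 CPM over the mutant libraries. Microglia and leukocyte markers summed to 6.55 to 14.7 CPM in WT and 2.15 to 5.91 CPM in Hdac2 ECKO, also wholly below WT. They summed to 4.08 to 17.1 CPM in the Ezh2-labelled libraries and 2.52 to 3.80 CPM in beta-catenin GOF, the latter below WT as well. Erythroid and platelet markers had the highest sums of these lists, at 36148 to 61418 CPM in WT, 406 to 21723 CPM in Hdac2 ECKO, 2532 to 6715 CPM in the Ezh2-labelled libraries and 528 to 35413 CPM in beta-catenin GOF. Their part in the values of the 10 genes was not tested.

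Related genes were read from lists by role. Of 24 other basement membrane components, among them minor laminin and collagen IV chains, agrin and fibronectin, 18 were tested and 0 were called in any comparison with WT, with medians of 0.66 in Hdac2 ECKO, −0.00 in the Ezh2-labelled libraries and 0.66 in beta-catenin GOF. At an unadjusted p under 0.05 there were 5, 4 and 5 of the 18 in the same order, beside 33.1%, 24.7% and 6.07% of all genes. DESeq2 called 3, 2 and 0 of them, beside at most 20.7%, 10.3% and 0.35%. Limma voom with sample quality weights called 4, 2 and 0, beside 42.7%, 29.8% and 0.207%. Sparc, a collagen-binding matricellular gene and the highest of them per kilobase in WT at 214.5 CPM, had log2 fold changes of −0.61, −0.01 and 0.72 in the same order (edgeR adjusted p 0.16, 0.99 and 0.78).

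Of 22 genes that fold, modify, export or crosslink collagen IV and laminin, 19 were tested, with medians of 0.25, 0.01 and 0.19. In Hdac2 ECKO edgeR called 1 of the 19 higher and 1 lower, beside 3.82% and 5.38% of all tested genes. In the Ezh2-labelled libraries it called 1 higher, beside 0.342%. At an unadjusted p under 0.05 there were 5, 3 and 4 of the 19, beside 33.1%, 24.7% and 6.07% of all genes. DESeq2 called 4, 1 and 0 of them, beside at most 20.7%, 10.3% and 0.35%. Voom with quality weights called 6, 4 and 0, beside 42.7%, 29.8% and 0.207%. Plod2, a lysyl hydroxylase that prepares collagen for crosslinking, rose in Hdac2 ECKO by 1.06 on the log2 scale (SE 0.25, adjusted p 0.034 with edgeR) and in the Ezh2-labelled libraries (1.23, SE 0.25, adjusted p 0.045). Its levels were 11.4, 14.8 and 12.5 CPM in WT libraries and 28.2, 23.2 and 29.4 CPM in those of Hdac2 ECKO, with 33.6, 32.1 and 25.2 CPM in the Ezh2-labelled libraries and 18.9, 21.6 and 24.4 CPM in beta-catenin GOF, so every mutant library exceeded WT. Both calls held with the length offset, at adjusted p of 0.044 and 0.042, but the second was lost when only WT and that group were fitted (adjusted p 0.12). P4hb, the beta subunit of prolyl 4-hydroxylase, fell in Hdac2 ECKO by 1.11 on the log2 scale (SE 0.33, adjusted p 0.0497), and the call was lost with the length offset (adjusted p 0.16) and with library size scaling (0.11). Ppib, a prolyl isomerase and the highest of this list per kilobase in WT at 168 CPM, had a log2 fold change of −0.75 in Hdac2 ECKO (adjusted p 0.12).

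All 16 receptors were tested, with medians of 0.73, 0.11 and 0.37. In Hdac2 ECKO edgeR called 1 of them higher, beside 3.82% of all tested genes, and the other comparisons with WT had no call. At an unadjusted p under 0.05 there were 8, 2 and 1 of the 16, beside 33.1%, 24.7% and 6.07% of all genes. DESeq2 called 5, 1 and 0 of them, beside at most 20.7%, 10.3% and 0.35%. Voom with quality weights called 6, 1 and 0, beside 42.7%, 29.8% and 0.207%. Itga1, the alpha chain of a collagen-binding integrin, rose in Hdac2 ECKO from 156, 242 and 247 CPM to 453, 311 and 413 CPM (by 0.87 on the log2 scale, SE 0.25, adjusted p 0.045 with edgeR), but with the length offset the value was 0.02 (adjusted p 0.96). Itgb1, its beta chain partner and the highest receptor per kilobase in WT at 50.7 CPM, had a log2 fold change of −0.12 (adjusted p 0.75). Of 19 proteases and inhibitors 13 were tested, with medians of 0.39, 0.28 and 0.28. In Hdac2 ECKO edgeR called 1 of the 13 lower, beside 5.38% of all tested genes, and the other comparisons with WT had no call. At an unadjusted p under 0.05 there were 5, 4 and 1 of the 13, beside the shares of all genes given for the receptors. Beside those shares too, DESeq2 called 3, 2 and 0 of them and voom with quality weights 4, 4 and 0. Ctsb, the lysosomal cathepsin B, fell in Hdac2 ECKO by 1.29 on the log2 scale (SE 0.30, adjusted p 0.034), from 242, 152 and 114 CPM to 60.4, 86.4 and 61.2 CPM, and by 1.52 with the length offset (adjusted p 0.031). Ctsl, cathepsin L and the highest of this list per kilobase in WT at 68.4 CPM, had a log2 fold change of −0.61 (adjusted p 0.082). Each call of Plod2, P4hb, Itga1 and Ctsb in Hdac2 ECKO was lost without WT replicate 1, WT replicate 2, Hdac2 ECKO replicate 1 or Hdac2 ECKO replicate 3. That of Plod2 in the Ezh2-labelled libraries was lost without WT replicate 1 or 2 or without their replicate 1 or 3.

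Over the 12 libraries the 10 genes varied together to different degrees. Pearson's r of a gene's log2 CPM with the mean of the 10, which contains the gene, was 0.92 for Col4a2, 0.87 for Hspg2, 0.84 for Col4a1, 0.79 for Nid1, 0.78 for Lama4, 0.77 for Nid2 and 0.76 for Lama5. It was lower for Lamb1 (0.58), Lamc1 (0.55) and Lamb2 (0.49). The genes outside the 10 whose log2 CPM was most like that mean were Tgfa (r 0.95), Mapk14 (0.94), Tnfrsf19 (0.94), Nfib (0.93), Cgnl1 (0.93) and Cnot3 (0.93), over 12 libraries that share their depth, quality and group.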

How the data were processed

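The authors' deposited table gives 1 value per gene and library and its title calls the values normalized, but the values were whole counts with unequal totals and an excess of even numbers (79.5% to 84.0% of values from 10 to 50), so the deposited values were treated as raw counts in which mates of a pair were often counted singly. Per the submitters' processing notes, FastQC, cutadapt, STAR, featureCounts and DESeq2 were used with the mm10 build. Their versions, the annotation and the use of strand are not given in the sources used here. Gene length was taken from the table, and coordinates on GRCm38, counted from 1, from GENCODE M21, which matched 98.4% of its rows.

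The main test was the quasi-likelihood F test of edgeR 4.0.16 (R 4.3.3) on TMM-scaled counts, fitted as 1 model of all 12 libraries and no block, for genes averaging 10 or more counts, with Benjamini-Hochberg adjustment over 12577 genes in each of 6 contrasts at 0.05. The SE was derived from the F statistic. Alternatives were median-ratio and library size scaling, no filter and a mean count of at least 50, DESeq2 1.42.0, limma 3.58.1 voom with sample quality weights, a loess offset on gene length (span 0.3), only the groups compared, a replicate block alone and with the length offset, and each library left out. Chosen after seeing the data were an offset on length and GC content and a fit without Ezh2-labelled replicate 2. The edgeR fit and the offset were tested on simulated data. The 10 genes and the lists were chosen with earlier results of these data known. Named beside the 10 were the targeted genes, in each list the genes past the threshold and the highest per length in WT, and the 6 most correlated genes. Cell type markers and Rtraf were named after their values were seen. A floor of 3 counts was used for counts of 0, and it covers counting error only, since reads carry no molecular identifiers. Replicate libraries differed beyond sampling noise (lowest chi-square 62.6 per degree of freedom).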

Additional observations from a re-analysis of the deposited data

How the results depend on the processing

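In Hdac2 ECKO against WT, 3 of the 10 genes were called, and this became 6 with library size scaling, 0 with the length offset, 1 with the length and GC offset, 1 with the replicate block and length offset together, 6 without Ezh2-labelled replicate 2, 5 with DESeq2, 8 with voom quality weights and 0 to 5 with 1 library left out. In the Ezh2-labelled libraries, 0 became 1 with no filter, 3 with DESeq2, 6 with voom quality weights and 0 to 5 with 1 library left out. For beta-catenin GOF against Hdac2 ECKO, 0 became 2 with voom quality weights. The median log2 fold change of the 10 genes in Hdac2 ECKO was 1.07 with library size scaling, 0.40 with the length offset, 0.45 with the length and GC offset, 0.39 with block and length offset, and 0.69 to 0.91 with 1 library left out. In the Ezh2-labelled libraries it was 0.39 with the length offset, and in beta-catenin GOF 0.44 with the length offset, 0.41 with length and GC, 0.44 with block and length offset and 0.46 to 0.69 with 1 library left out.

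The direction turned for Lamc1 in Hdac2 ECKO (−0.13 with the length offset, −0.11 with length and GC, −0.13 with block and length offset) and for Itga1 there (−0.029 with length and GC). In the Ezh2-labelled libraries it turned for Lama4 (−0.0048 with length and GC), Lamb2 (−0.26 to 0.11 with 1 library left out) and Lamb1 (−1.76 to 1.08 with 1 library left out, 0.54 with voom quality weights). In beta-catenin GOF it turned for Nid2 (−0.15, without replicate 3, to 0.79) and Ctnnb1 (−0.31 to 0.0155), each with 1 library left out. The causes were not tested.

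Calls over all genes in Hdac2 ECKO went from 1157 to 1826 with library size scaling, 2279 with no filter, 597 with the length offset, 2599 with DESeq2 and 5374 with voom quality weights. In the Ezh2-labelled libraries 129 became 76 with median-ratio scaling, 30 with library size scaling, 1367 with no filter, 219 with a mean count of at least 50, 17 with only the groups compared, 1294 with DESeq2 and 3743 with voom quality weights. In beta-catenin GOF 0 became 157 with no filter.

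Replicate numbers were not shown to pair libraries: same-numbered libraries of a mutant and WT had deviations that correlated across genes at −0.14 to 0.056. Between mutants the range was 0.063 to 0.27 for Hdac2 ECKO and the Ezh2-labelled libraries, all positive, and −0.019 to 0.15 for the other pairs, so in no comparison was every correlation over 0.1. With the replicate block 4 of the 10 genes passed in Hdac2 ECKO, Nid1 being added (adjusted p 0.045), and calls over all genes went to 1832, 536 and 0 in the 3 comparisons with WT. Between mutants it called 0 of the 10. Depth limits Lamb1, with 0 to 82 counts per library.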
